A study of Mus musculus with 12 samples.

Results

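The AP-1 and EGR transcription factor genes Egr1, Egr2, Egr3, Fos, Fosb, Fosl1, Fosl2, Jun, Junb and Jund were followed in the mouse cell line GC-2. They were listed by gene symbol with no cut on their values, but with earlier results of these data known. All 10 were among the 24770 symbols of the deposited table, and 7 of them reached 1 FPKM (fragments per kilobase of transcript, scaled to the mapped fragments of the library, so a level per transcript length) in at least 3 of the 12 libraries and were tested. The cells, labelled as type B spermatogonia of wild-type genotype, were kept for 24 h in 4 groups of 3 libraries each: DMSO (the solvent control) in normoxia, DMSO in hypoxia (1% O2), MLN4924 at 1 µM in normoxia, and MLN4924 at 1 µM in hypoxia. MLN4924 inhibits the enzyme that activates NEDD8 and so blocks the modification that cullin-RING ubiquitin ligases need. The series title concerns apoptosis under hypoxia when neddylation is inhibited. GC-2 is 1 immortalised line carrying SV40 large T antigen and a mutant p53, a background all 4 groups share, and the labels call the libraries of a group biological replicates without saying how they were cultured. The titles and the cell line label give GC-2 for all 12 samples, but the cell type label gives a different GC number for each, counting up from 2 to 13, and GC-2 was taken from the titles.

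AP-1 is a dimer of basic leucine zipper proteins, in which a JUN protein pairs with another JUN or with a FOS protein. EGR proteins are zinc finger factors. Many of these genes are immediate early genes: growth factor and stress signals act through MAP kinases, serum response factor and its ternary complex partners to switch them on within minutes, and they usually fall again soon after, so that a sample at 24 h reads the sustained level and not the first pulse. JUN and FOSL1 proteins are short-lived, and JUN is a known substrate of cullin-RING ligases with FBXW7 or with COP1 and DET1 as receptors. FPKM measure transcripts and not these proteins.

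The upstream sequences of Jun, Junb, Fos and Fosl2 are shown because they let members of both AP-1 families be compared: with all libraries, Junb and Fos each had a group order of their own, while Jun and Fosl2 shared theirs. For Fos that order rests on group means alone, as DMSO hypoxia and MLN4924 normoxia differed by only 0.02 log2 units, within their spread. Each run is the 250 bases before the transcription start that RefSeq lists for build GRCm38.p6, read 5′ to 3′ on the gene's strand: chr4:95052223-95052472 on the minus strand for Jun, chr8:84978749-84978998 on the minus strand for Junb, chr12:85473640-85473889 on the plus strand for Fos and chr5:32136222-32136471 on the plus strand for Fosl2. The submitters' processing notes name build mm39 for the reads, and these positions are those of the RefSeq table only. Capitals mark matches on either strand to the motifs searched, which were the AP-1 site TGANTCA, the CRE-like site TGACNTCA, the short CRE core TGACG, the CArG box bound by serum response factor, the EGR site GCGNGGGCG, and the hypoxia response core, which is ACGTG or else GCGTG. The short CRE core can lie within a CRE-like site, and the hypoxia response core within an EGR site.
Jun: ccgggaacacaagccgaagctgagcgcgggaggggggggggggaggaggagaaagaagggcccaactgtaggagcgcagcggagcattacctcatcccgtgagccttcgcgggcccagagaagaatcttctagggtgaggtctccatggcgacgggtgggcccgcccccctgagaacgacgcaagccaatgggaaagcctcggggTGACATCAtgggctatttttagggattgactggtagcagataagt
Junb: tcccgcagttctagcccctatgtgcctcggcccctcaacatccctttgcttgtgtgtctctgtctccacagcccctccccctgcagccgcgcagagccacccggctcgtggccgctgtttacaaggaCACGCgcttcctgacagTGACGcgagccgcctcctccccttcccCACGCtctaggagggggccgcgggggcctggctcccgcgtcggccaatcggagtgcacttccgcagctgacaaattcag
Fos: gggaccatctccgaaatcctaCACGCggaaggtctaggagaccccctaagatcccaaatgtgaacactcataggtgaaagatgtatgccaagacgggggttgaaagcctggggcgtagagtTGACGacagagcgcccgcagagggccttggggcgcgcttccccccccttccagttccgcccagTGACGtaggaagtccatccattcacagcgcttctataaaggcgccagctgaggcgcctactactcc
Fosl2: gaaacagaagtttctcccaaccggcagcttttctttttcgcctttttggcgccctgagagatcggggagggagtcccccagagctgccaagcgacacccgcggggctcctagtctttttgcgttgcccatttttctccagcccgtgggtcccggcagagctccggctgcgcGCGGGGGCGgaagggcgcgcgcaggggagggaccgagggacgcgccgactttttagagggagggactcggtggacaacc

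The Jun sequence holds 1 match, the CRE-like site TGACATCA, which starts 45 bases before the listed start. Junb holds the short core TGACG 106 bases before its start and the hypoxia response core on the opposite strand 79 and 123 bases before it. Fos holds TGACG 129 and 66 bases before its start and 1 hypoxia response core at 229 bases, while Fosl2 holds 1 EGR site at 79 bases. Of all 32851 listed mouse starts, 7.49% have TGACNTCA in a window of this length, 17.8% have TGACG, 38.6% have the hypoxia response core, 4.70% have GCGNGGGCG, 6.75% have TGANTCA and 1.47% have a CArG box. Promoters were listed for 7 of the 10 members, and those of Egr1, Egr3 and Fosl1 were not analysed here. Within the windows searched, CArG boxes were found for Egr2 only, at 4 of its 5 listed starts. Sequence outside these windows was not searched, so the lack of a match does not show that a gene lacks a CArG box. A match is a match of letters and was not tested as a site.

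Library totals ran from 530452 to 633597 FPKM, depth in reads is unknown, and the highest total belonged to DMSO hypoxia replicate 1, which stood apart. Against the mean of the other DMSO hypoxia libraries its genes deviated with transcript length, from a median of 0.34 log2 units in the shortest of 5 length bins to -0.39 in the longest. Its part in the results was examined by leaving it out and by array weights, and values without it are given beside many of the results it moved. Of the spermatogonial marker list, 7 of 11 genes were in the table and only Gfra1 and Uchl1 reached 1 FPKM, with a summed level of 12.04 to 26.1 FPKM per library. Kit and Ddx4 stayed at or below 0.06 FPKM. The fibroblast and peritubular list, with 5 of 8 genes at 1 FPKM or more, summed to 1084 to 1425 FPKM. That sum was led by the collagen genes Col1a1 (365 to 739 FPKM) and Col1a2 (338 to 636), while Thy1, Myh11 and Dcn of the same list stayed at or below 0.78. Of the 7 genes of the Leydig cell list 5 were in the table. Nr5a1 measured 19.2 to 25.6 FPKM and Star 1.13 to 11.2. Cyp11a1 stayed at or below 1.22 FPKM, Hsd3b1 at or below 0.14 and Cyp17a1 at or below 0.03. No cell type was assigned from these lists. These are bulk libraries, in which fewer cells expressing a gene and less RNA per cell cannot be told apart.

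**Figure D1:**
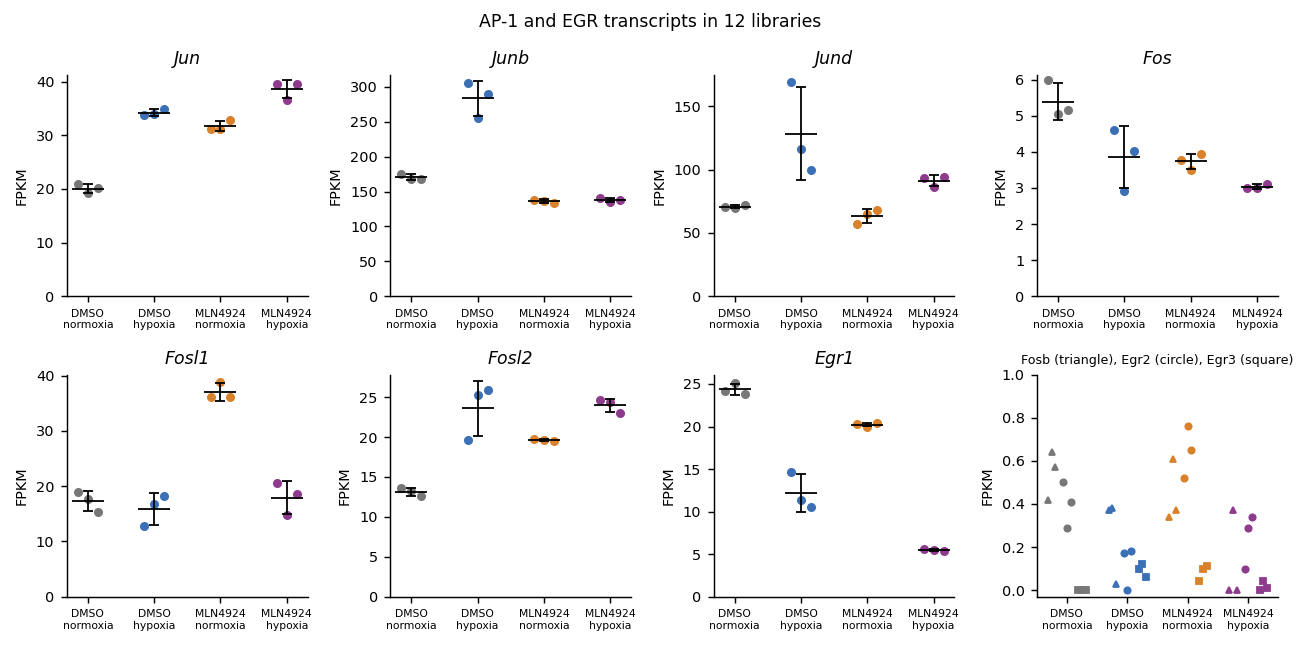
FPKM of the 10 genes in each library (points) by group, with the mean as a long bar and the SD as a whisker (n = 3) for the 7 tested genes; the last panel shows the 3 genes below 1 FPKM. Junb is high in DMSO hypoxia alone, Fosl1 is high in MLN4924 normoxia alone, and Egr1 is lowest in MLN4924 hypoxia, at 5.35 to 5.56 FPKM.

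Hypoxia without the inhibitor raised all 3 Jun genes and Fosl2 and lowered Egr1 and Fos. Of the 7 tested members 4 rose and 2 fell (limma on log2(FPKM + 1), adjusted p under 0.05 over all tested genes), where 33.2% of all 12311 tested genes were called, 13.8% rising and 19.4% falling. Among all called genes 41.5% rose, or 52.0% under median-of-ratios scaling. The member counts were the same without DMSO hypoxia replicate 1.

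Jun, which encodes the most strongly activating JUN protein, measured 20.93, 19.18 and 20.11 FPKM in DMSO normoxia and 33.74, 33.97 and 35.00 FPKM in DMSO hypoxia. The groups did not overlap, and the level rose 1.67-fold on the FPKM + 1 scale (log2 fold change 0.74 ± 0.05 SE, adjusted p = 5.85e-06). Every fold change of a gene given here is on that scale, which makes it smaller than the ratio of the FPKM for low genes. With MLN4924 it measured 31.23, 31.15 and 32.79 FPKM in normoxia and 39.58, 36.64 and 39.56 FPKM in hypoxia. Jun was thus lowest in untreated cells and highest with both treatments. The inhibitor raised it 1.55-fold in normoxia (log2 fold change 0.64 ± 0.05, adjusted p = 3.04e-05), and both treatments together raised it 1.88-fold over DMSO normoxia (0.91 ± 0.05, adjusted p = 9.62e-07). In hypoxia the further rise with MLN4924 was 1.12-fold (0.17 ± 0.05, adjusted p = 0.0462). That last call ended under 16 of 23 alternatives, among them leaving out any library but DMSO hypoxia replicate 1 or MLN4924 hypoxia replicate 2, with adjusted p from 0.0314 to 0.188.

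Junb encodes a JUN protein that activates less strongly than JUN and can oppose it in a shared dimer. It was the most abundant member, at 175.46, 167.58 and 168.00 FPKM in DMSO normoxia. In DMSO hypoxia it measured 305.54, 255.99 and 289.12 FPKM, above every library of the other groups. In hypoxia with MLN4924 it measured 141.32, 134.51 and 138.09 FPKM, and in normoxia with MLN4924 138.24, 136.99 and 133.20 FPKM, so both inhibitor groups lay below untreated cells. The summed Sertoli marker list (6 of 7 genes in the table, 4 of them tested) was also highest in DMSO hypoxia, at 21.8 to 24.95 FPKM, against 15.2 to 18.04 in DMSO normoxia, 11.1 to 15.4 in MLN4924 hypoxia and 8.56 to 12.9 in MLN4924 normoxia. Of its 4 tested genes only 1 was called as rising with hypoxia in DMSO (2 without DMSO hypoxia replicate 1), against 13.8% of all tested genes. The sum thus does not describe the list as a whole, and its part in the Junb values was not tested. Hypoxia raised Junb 1.66-fold in DMSO (log2 fold change 0.73 ± 0.06, adjusted p = 1.73e-05). With MLN4924 the hypoxia effect was 0.02 ± 0.06 (adjusted p = 0.858). The inhibitor lowered Junb by 0.32 on the log2 scale in normoxia (log2 fold change -0.32 ± 0.06, adjusted p = 0.00480) and by 1.03 in hypoxia (-1.03 ± 0.06, adjusted p = 3.22e-06). The difference between the 2 hypoxia effects, the interaction, was -0.71 ± 0.09 (adjusted p = 0.00401), and it kept its call in every alternative, with adjusted p up to 0.0197.

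Jund encodes the JUN protein that resting cells express most steadily. It measured 70.47, 69.84 and 72.34 FPKM in DMSO normoxia and 169.60, 116.58 and 99.57 FPKM in DMSO hypoxia. The wide spread came from DMSO hypoxia replicate 1, which lay 0.65 log2 units above the mean of the other 2 libraries. Jund falls in the shortest length bin, whose genes deviated by a median of 0.34 in that library. Junb (0.17, its bin 0.17), Fosl2 (-0.37, its bin -0.39) and Jun (-0.03, its bin 0.04) lay near the median of their bins. Fos lay at 0.34 where its bin had 0.17, Fosl1 at -0.43 in that same bin, and Egr1 at 0.39 where its bin had -0.10. The part of length in the Jund value was not tested. Jund rose with hypoxia by 0.81 ± 0.15 on the log2 scale (adjusted p = 0.00269), and by 0.60 without that library (adjusted p = 3.49e-04, range over alternatives 3.49e-04 to 0.0349). It was 57.26, 65.28 and 67.86 FPKM in MLN4924 normoxia and 93.80, 86.30 and 94.23 FPKM in MLN4924 hypoxia, again without overlap between the oxygen levels. The rise with hypoxia under MLN4924 was 0.52 ± 0.15 (adjusted p = 0.0287). This call ended under 6 of 23 alternatives, including without any MLN4924 hypoxia library and without MLN4924 normoxia replicate 1 or 2, with adjusted p up to 0.102. Without DMSO hypoxia replicate 1 its adjusted p was 3.60e-04. The inhibitor effects did not pass in normoxia (-0.16 ± 0.15, adjusted p = 0.534) or in hypoxia (-0.45 ± 0.15, adjusted p = 0.0555, and -0.24 without DMSO hypoxia replicate 1, adjusted p = 0.0523, range 0.0111 to 0.187).

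Fos, the founding immediate early gene, was low at 24 h. It measured 5.99, 5.04 and 5.16 FPKM in DMSO normoxia, 4.61, 2.91 and 4.03 FPKM in DMSO hypoxia, 3.78, 3.5 and 3.93 FPKM in MLN4924 normoxia, and 2.99, 3.01 and 3.12 FPKM in MLN4924 hypoxia. Untreated cells were highest and the combined group was lowest but for DMSO hypoxia replicate 2. Fos fell with hypoxia in DMSO (log2 fold change -0.41 ± 0.13, adjusted p = 0.0315) and with MLN4924 in normoxia (-0.43 ± 0.13, adjusted p = 0.0383). Neither call was stable. The first ended under 8 of 23 alternatives, including without DMSO hypoxia replicate 2 or any DMSO normoxia library (adjusted p up to 0.183), and the second under 11, including without any single library outside DMSO hypoxia (adjusted p up to 0.135). Against untreated cells the combined treatment lowered Fos by 0.66 ± 0.13 on the log2 scale (log2 fold change -0.66, adjusted p = 0.00250), and this call held in every alternative.

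Fosl1 encodes FRA1, a FOS protein without the strong activating domain of FOS, induced by sustained MAP kinase signalling. It measured 18.85, 17.71 and 15.26 FPKM in DMSO normoxia, 12.73, 16.71 and 18.24 FPKM in DMSO hypoxia, and 20.49, 14.73 and 18.59 FPKM in MLN4924 hypoxia, and these 3 groups overlapped. In MLN4924 normoxia it measured 36.17, 38.86 and 36.08 FPKM, above every other library. The inhibitor raised Fosl1 2.09-fold in normoxia (log2 fold change 1.06 ± 0.14, adjusted p = 5.31e-04), and hypoxia lowered it by 1.02 on the log2 scale in inhibitor-treated cells (log2 fold change -1.02 ± 0.14, adjusted p = 5.43e-04). In hypoxia the inhibitor effect was 0.17 ± 0.14 (adjusted p = 0.425), and in DMSO the hypoxia effect was -0.12 ± 0.14 (adjusted p = 0.537). The interaction of -0.89 ± 0.20 missed the threshold with all libraries (adjusted p = 0.0590). It was -1.04 without DMSO hypoxia replicate 1, with adjusted p = 0.00730 and a range over alternatives of 0.00322 to 0.151. The call was gained in 4 of 22 alternatives: without that library, with array weights, with quantile normalization (adjusted p = 0.0338) and with a filter at 5 FPKM (0.0476).

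Fosl2 encodes FRA2, the other FOS protein of this kind. It measured 13.59, 13.19 and 12.59 FPKM in DMSO normoxia, 19.60, 25.34 and 25.88 FPKM in DMSO hypoxia, 19.72, 19.66 and 19.51 FPKM in MLN4924 normoxia, and 24.60, 24.36 and 23.08 FPKM in MLN4924 hypoxia. All 9 treated libraries lay above the 3 untreated ones. Hypoxia in DMSO raised Fosl2 1.73-fold (log2 fold change 0.79 ± 0.09, adjusted p = 1.32e-04), MLN4924 in normoxia raised it 1.46-fold (0.55 ± 0.09, adjusted p = 0.00220), and both together raised it 1.77-fold (0.82 ± 0.09, adjusted p = 7.29e-05). In hypoxia MLN4924 made a difference of 0.03 ± 0.09 (adjusted p = 0.824). The rise with hypoxia under MLN4924 was 0.28 ± 0.09 (adjusted p = 0.0471), a call that ended under 13 of 23 alternatives, including without any single library outside DMSO hypoxia (adjusted p up to 0.134). The interaction was -0.51 ± 0.13 (adjusted p = 0.0899) and -0.64 without DMSO hypoxia replicate 1 (adjusted p = 8.80e-04, range 6.83e-04 to 0.315).

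Fosb and the EGR genes Egr2 and Egr3 were below the level needed for a test. Fosb ranged from 0.42 to 0.64 FPKM in DMSO normoxia, 0.03 to 0.38 in DMSO hypoxia, 0.34 to 0.61 in MLN4924 normoxia and 0 to 0.37 in MLN4924 hypoxia. Egr2, a regulator of myelination and lymphocyte activation, ranged from 0.29 to 0.50, 0 to 0.18, 0.52 to 0.76 and 0.10 to 0.34 FPKM in the same order of groups. For Egr2 both hypoxia groups thus lay at or below 0.34 FPKM and both inhibitor groups lay above or overlapped their DMSO counterpart. Egr3 was listed at 0 in all DMSO normoxia libraries and at 0 to 0.12 FPKM elsewhere.

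Egr1, which encodes the main EGR factor of growth and stress responses, had a separate level in each group. It measured 24.19, 25.09 and 23.83 FPKM in DMSO normoxia, 20.31, 19.99 and 20.40 FPKM in MLN4924 normoxia, 14.64, 11.38 and 10.49 FPKM in DMSO hypoxia, and 5.56, 5.47 and 5.35 FPKM in MLN4924 hypoxia. No 2 of the 4 groups overlapped. Hypoxia lowered Egr1 by 0.96 on the log2 scale in DMSO (log2 fold change -0.96 ± 0.10, adjusted p = 5.63e-05) and by 1.72 in MLN4924 (-1.72 ± 0.10, adjusted p = 1.56e-06). MLN4924 lowered it by 1.02 in hypoxia (-1.02 ± 0.10, adjusted p = 6.67e-05). In normoxia the difference of -0.26 ± 0.10 did not pass with all libraries (adjusted p = 0.0969) but did without DMSO hypoxia replicate 1, which enters this contrast only through the shared spread (adjusted p = 0.00232, range 0.00198 to 0.228). Both treatments together left Egr1 3.93-fold below untreated cells (-1.97 ± 0.10, adjusted p = 2.84e-07). The interaction was -0.76 ± 0.14 (adjusted p = 0.0252). It was -0.63 without DMSO hypoxia replicate 1 and lost its call without any single library outside DMSO hypoxia (adjusted p up to 0.0773).

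**Figure D2:**
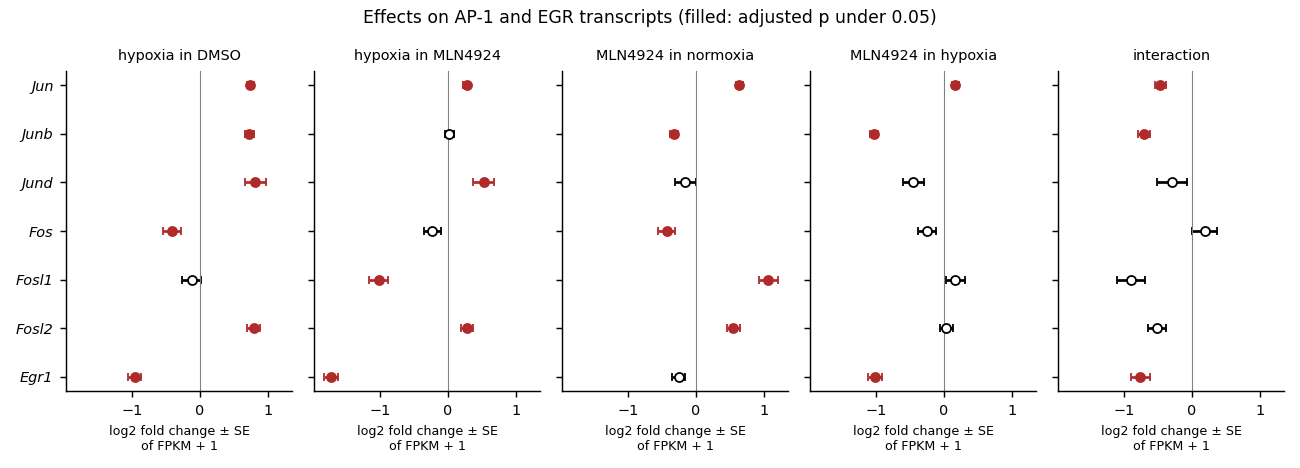
Log2 fold change (x axis, on the FPKM + 1 scale, ± SE of the limma fit) of the 7 tested genes for 4 pairwise comparisons and the interaction; filled points passed an adjusted p of 0.05. Junb lies at 0.73 for hypoxia in DMSO and at 0.02 for hypoxia in MLN4924, while Egr1 lies below 0 in every panel.

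Across the remaining comparisons the counts were as follows. With MLN4924 in normoxia 3 members rose (Jun, Fosl1 and Fosl2) and 2 fell (Junb and Fos), against 20.0% of all tested genes called, 9.33% rising and 10.7% falling. When DMSO hypoxia replicate 1 was left out 3 rose and 3 fell, Egr1 being added, where 4212 of 12233 tested genes were called. With MLN4924 in hypoxia 1 rose (Jun) and 2 fell (Junb and Egr1), against 25.5% called, 12.2% rising and 13.3% falling. For hypoxia in MLN4924 3 rose (Jun, Jund and Fosl2) and 2 fell (Fosl1 and Egr1), against 28.2% called, 11.7% rising and 16.5% falling. For both treatments against neither 2 rose (Jun and Fosl2) and 3 fell (Junb, Fos and Egr1), against 35.8% called, 14.6% rising and 21.2% falling. There the fit lacking DMSO hypoxia replicate 1 had 3 rising, with Jund added, and 3 falling, where 6072 of 12233 tested genes were called. Under median-of-ratios scaling the rising share of all genes called in this last comparison went from 40.7% to 51.1%. These comparisons share libraries, so their counts are not independent of each other.

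For the interaction 3 of 7 members were called (Egr1, Jun and Junb) against 1.88% of all tested genes, and all 3 were called with negative values, as were 0.926% of all tested genes. The Jun interaction was -0.47 ± 0.08 (adjusted p = 0.0151) and ended without MLN4924 normoxia replicate 3 (adjusted p = 0.0539) and when library totals were made equal (0.0953), with a lowest adjusted p of 0.00182 over alternatives. The count was 5 without DMSO hypoxia replicate 1, where Fosl1 and Fosl2 joined, and 1 without MLN4924 normoxia replicate 3, where Junb alone passed. Written as sums, the single effects on Junb add to 0.41 on the log2 scale while the observed effect of both was -0.30. For Jun they add to 1.38 against 0.91 observed, for Fosl2 to 1.34 against 0.82, for Fosl1 to 0.94 against 0.04, and for Egr1 to -1.21 against -1.97. For Fos (-0.84 against -0.66) and Jund (0.65 against 0.36) the interaction did not pass (adjusted p = 0.673 and 0.578).

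Ordered by level, the groups formed a different sequence for nearly every gene. For Junb the order was DMSO hypoxia, DMSO normoxia, MLN4924 hypoxia and MLN4924 normoxia, and the last 2 did not differ beyond their spread. For Jun it was MLN4924 hypoxia, DMSO hypoxia, MLN4924 normoxia and DMSO normoxia, and the middle 2 did not differ (log2 difference 0.11 ± 0.05, adjusted p = 0.140). Fosl2 had the same order as Jun, and there only the step from MLN4924 normoxia down to DMSO normoxia passed. Without DMSO hypoxia replicate 1 the 2 hypoxia groups changed places for Fosl2 (MLN4924 minus DMSO -0.090, adjusted p = 0.189). Its difference between MLN4924 normoxia and DMSO hypoxia then passed (log2 fold change -0.37, adjusted p = 1.73e-04). For Fosl1 only the step from MLN4924 normoxia to the next group, MLN4924 hypoxia, passed. For Fos only the step from DMSO normoxia to DMSO hypoxia passed, and for Egr1 every step passed except that from DMSO normoxia to MLN4924 normoxia. For Jund, in the order DMSO hypoxia, MLN4924 hypoxia, DMSO normoxia and MLN4924 normoxia, no neighbouring groups differed beyond their spread with all libraries. Without DMSO hypoxia replicate 1 the Jund step between MLN4924 hypoxia and DMSO normoxia passed (log2 fold change 0.36, adjusted p = 0.00246). The single treatments themselves were compared only for these orders. Between MLN4924 normoxia and DMSO hypoxia 2 of the 7 tested members were higher with the inhibitor (Egr1 and Fosl1) and 2 were lower (Junb and Jund), where 42.5% of all tested genes were called, 22.8% higher and 19.7% lower. Fosl2 joined the lower ones when DMSO hypoxia replicate 1 was left out.

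The makeup of each family at the transcript level differed between the groups. Since FPKM is a level per length, members can be added within a library. A scaling factor cancels in shares and ratios, but not in sums set side by side between libraries. A deviation that goes with transcript length, as in DMSO hypoxia replicate 1, need not cancel in shares or ratios either. Summed over Jun, Junb and Jund, the Jun family came to 261 ± 5.18 FPKM (SD, n = 3) in DMSO normoxia, 446 ± 54.8 in DMSO hypoxia, 231 ± 3.99 in MLN4924 normoxia and 268 ± 9.25 in MLN4924 hypoxia. In DMSO hypoxia the sum was 509 FPKM in replicate 1, 407 in replicate 2 and 424 in replicate 3. Jund made up 33.3%, 28.7% and 23.5% of it in the same order. Jun itself made up 7.68 ± 0.188% and 7.75 ± 0.970% of the family sum in DMSO normoxia and hypoxia, and 13.7 ± 0.342% and 14.4 ± 0.160% with MLN4924. The lowest inhibitor library, at 13.3%, lay above the highest DMSO library, at 8.36%. Junb exceeded Jun 8.49 ± 0.213-fold in DMSO normoxia and 8.28 ± 0.760-fold in DMSO hypoxia, against 4.30 ± 0.203-fold and 3.58 ± 0.0904-fold with MLN4924.

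On the log2 scale the Junb to Jun ratio differed by -0.98 with MLN4924 in normoxia and by -1.21 in hypoxia, both without overlap of groups, and leaving out any 1 library gave -1.01 to -0.94 and -1.27 to -1.14. An exact two-sided permutation test of 3 libraries against 3 cannot go below p = 0.1, which both reached (0.15 after Benjamini-Hochberg adjustment over the 12 ratio comparisons made), so these ratios cannot pass 0.05 by that test. Hypoxia in DMSO left the Junb to Jun ratio nearly where it was (-0.04, exact p = 0.7). With MLN4924 the log2 ratio differed by -0.26 between oxygen levels, without overlap (exact p = 0.1, 0.15 adjusted). The Junb to Jund ratio was 2.40 ± 0.0838 in DMSO normoxia, 2.30 ± 0.558 in DMSO hypoxia and 2.16 ± 0.232 in MLN4924 normoxia, and each single treatment overlapped DMSO normoxia (exact p = 0.7 and 0.3). In MLN4924 hypoxia it was 1.51 ± 0.0467, below both single treatments without overlap (exact p = 0.1 each).

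**Figure D3:**
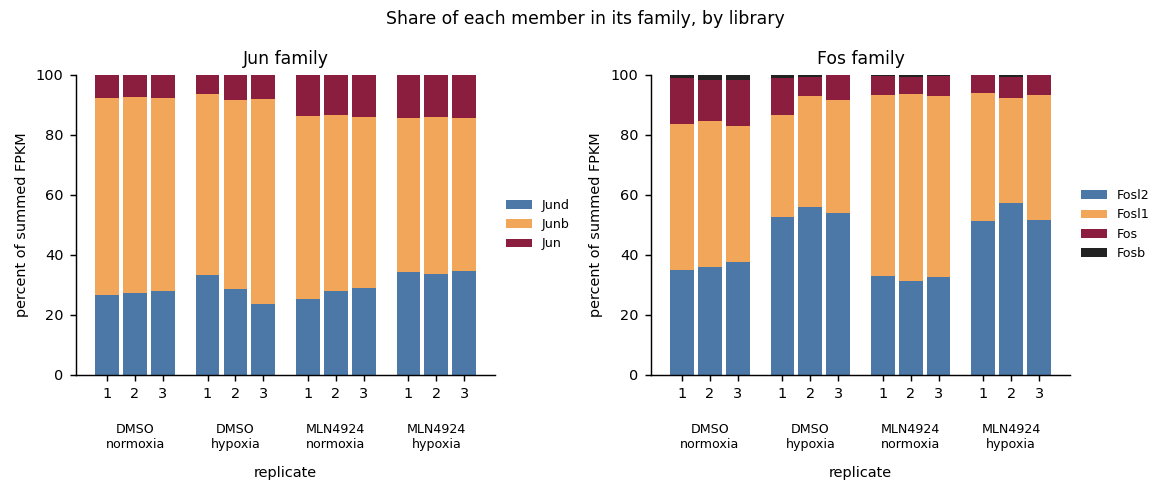
Share of each gene in the summed FPKM of its family (y axis, percent) in every library, with replicates 1 to 3 of each group side by side. Jun takes 6.63% to 8.36% of the Jun family in the DMSO libraries and 13.3% to 14.6% in the MLN4924 libraries, and Fosl2 takes over 50% of the Fos family in all 6 hypoxia libraries.

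Within the Fos family the split between Fosl1 and Fosl2 differed between oxygen levels, and in normoxia also with MLN4924. Fosl2 made up 36.2 ± 1.26% of the summed Fos, Fosb, Fosl1 and Fosl2 level in DMSO normoxia and 54.05 ± 1.70% in DMSO hypoxia, and 32.3 ± 0.780% and 53.4 ± 3.48% with MLN4924. Fosl1 made up 47.5 ± 1.75% and 36.3 ± 1.93% in DMSO, and 60.9 ± 1.03% and 39.6 ± 4.30% with MLN4924. The Fosl1 to Fosl2 ratio was 1.31 ± 0.0910 in DMSO normoxia and 1.89 ± 0.0782 in MLN4924 normoxia, above 1 in all 6 normoxia libraries. In hypoxia it was 0.671 ± 0.0295 with DMSO and 0.748 ± 0.125 with MLN4924, below 1 in all 6 libraries. The log2 difference between oxygen levels was -0.97 in DMSO and -1.35 in MLN4924, both without overlap and both at exact p = 0.1, the lowest possible (0.15 after Benjamini-Hochberg adjustment). MLN4924 in normoxia moved the log2 ratio by 0.52, also without overlap and at exact p = 0.1 (0.15 adjusted). In hypoxia the inhibitor and DMSO groups overlapped (0.14, exact p = 0.4). The Fos share was 14.9 ± 0.932% in DMSO normoxia and between 5.59% and 12.4% in the treated libraries.

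In the following lists the counts stand against 33.2% of all tested genes called for hypoxia in DMSO (13.8% rising, 19.4% falling), 20.0% for MLN4924 in normoxia (9.33% and 10.7%) and 25.5% for MLN4924 in hypoxia (12.2% and 13.3%). In the list of upstream MAP kinases, serum response factor and ternary complex factors, hypoxia in DMSO raised 2 of 24 tested genes and lowered 2 (median log2 fold change -0.12, against -0.08 over all tested genes), MLN4924 raised 1 and lowered 1 in normoxia (-0.12 against -0.03), and 2 rose and 5 fell with MLN4924 in hypoxia (-0.12 against -0.01). Without DMSO hypoxia replicate 1 the falling genes were 4, 5 and 5. That fit called 4760, 4212 and 3982 of all 12233 tested genes in the same 3 comparisons. Srf, which encodes serum response factor, measured 15.08, 16.67 and 14.78 FPKM in DMSO normoxia and 28.55, 30.01 and 28.69 FPKM in MLN4924 normoxia. In hypoxia it measured 12.24, 13.37 and 11.22 FPKM with DMSO and 25.39, 22.27 and 25.83 FPKM with MLN4924. Every inhibitor library lay above every DMSO library, and Srf rose 1.82-fold in normoxia (log2 fold change 0.87 ± 0.08, adjusted p = 5.31e-05) and 1.92-fold in hypoxia (0.94 ± 0.08, adjusted p = 3.36e-05). Map3k1, a kinase upstream of the JUN kinases, rose from 2.20 ± 0.843 to 7.92 ± 1.78 FPKM with hypoxia in DMSO, which is 2.83-fold on the FPKM + 1 scale (adjusted p = 6.50e-04). Mef2a and Rps6ka3, a MADS box factor and a kinase below ERK, fell with MLN4924 in hypoxia by 0.61 and 0.44 on the log2 scale (log2 fold changes -0.61 and -0.44, adjusted p = 0.0393 and 0.0131), and both calls ended under some alternatives: Mef2a without DMSO hypoxia replicate 1, DMSO normoxia replicate 3, MLN4924 normoxia replicate 1 or any MLN4924 hypoxia library, and Rps6ka3 without MLN4924 hypoxia replicate 1.

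Of 19 tested feedback repressors of these signals, 4 rose and 7 fell with hypoxia in DMSO (7 and 7 without DMSO hypoxia replicate 1; median log2 fold change -0.24), MLN4924 raised 8 and lowered 1 in normoxia (0.14), and 7 rose and 2 fell with MLN4924 in hypoxia (0.40). In these 3 comparisons rising calls made up 13.8%, 9.33% and 12.2% of all tested genes, and falling calls 19.4%, 10.7% and 13.3%. Leaving out DMSO hypoxia replicate 1 gave 9 rising and 2 falling repressors with MLN4924 in normoxia. Dusp6, the phosphatase of ERK, measured 12.50, 13.69 and 12.20 FPKM in DMSO normoxia, 5.36, 7.45 and 6.83 FPKM in DMSO hypoxia, 40.00, 41.46 and 40.56 FPKM in MLN4924 normoxia, and 23.84, 20.41 and 24.90 FPKM in MLN4924 hypoxia. The inhibitor raised it at both oxygen levels, by 1.60 ± 0.11 and 1.68 ± 0.11 on the log2 scale (adjusted p = 6.58e-06 and 4.41e-06), and hypoxia lowered it in DMSO (-0.88 ± 0.11, adjusted p = 1.80e-04). Dusp1, a phosphatase of JNK and p38 and itself an immediate early gene, measured 67.48, 58.56 and 58.84 FPKM in DMSO normoxia and 38.25, 35.72 and 35.53 FPKM in DMSO hypoxia. With MLN4924 it measured 60.94, 60.70 and 62.39 FPKM in normoxia and 62.29, 52.18 and 56.67 FPKM in hypoxia, so that DMSO hypoxia alone was low. Its interaction was 0.63 ± 0.11 (adjusted p = 0.0157), opposite in sign to that of Junb, and the call ended without MLN4924 hypoxia replicate 3 or any MLN4924 normoxia library (adjusted p up to 0.0528). Errfi1, a feedback inhibitor of the EGF receptor, rose 2.34-fold with MLN4924 in normoxia (adjusted p = 6.56e-07). Spry4, a repressor of receptor tyrosine kinase signalling, fell with hypoxia in DMSO by 0.88 on the log2 scale (log2 fold change -0.88 ± 0.12, adjusted p = 3.31e-04). Its levels were low, at 1.67 ± 0.0462 FPKM in DMSO normoxia and 0.457 ± 0.169 in DMSO hypoxia, and both hypoxia groups lay below 1 FPKM.

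Nab2 and Nab1 encode corepressors that bind EGR proteins. Nab2, itself a known EGR target, measured 15.47, 16.62 and 14.07 FPKM in DMSO normoxia, 20.74, 23.73 and 24.51 FPKM in DMSO hypoxia, 10.64, 11.76 and 7.75 FPKM in MLN4924 normoxia, and 12.21, 15.05 and 11.40 FPKM in MLN4924 hypoxia. It rose with hypoxia in DMSO, where Egr1 fell (0.55 ± 0.15, adjusted p = 0.0156), and it fell with MLN4924 in normoxia (-0.58 ± 0.15, adjusted p = 0.0179) and in hypoxia (-0.79 ± 0.15, adjusted p = 0.00294). The first of these calls ended without DMSO normoxia replicate 3, and the second without DMSO normoxia replicate 1 or 2 or MLN4924 normoxia replicate 3. Nab1 fell with hypoxia in DMSO, from 23.7 ± 1.11 to 18.3 ± 0.761 FPKM (-0.35 ± 0.09, adjusted p = 0.0112).

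**Figure D4:**
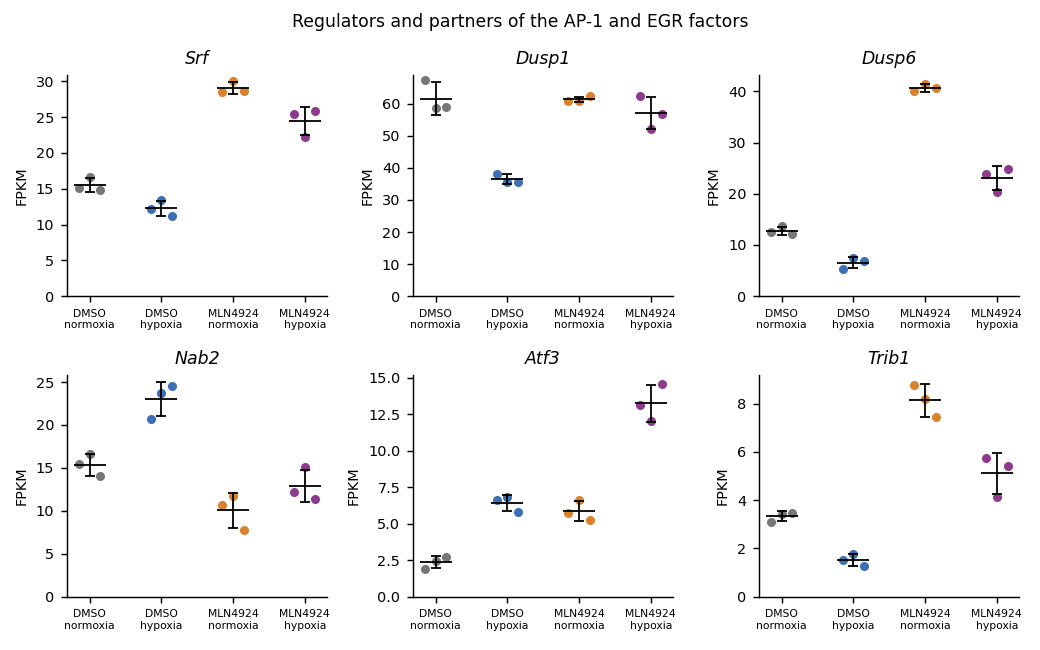
FPKM in each library (points) with mean and SD (n = 3) for 6 regulators and partners: Srf, Dusp1, Dusp6, Nab2, Atf3 and Trib1. Srf and Dusp6 are higher in every MLN4924 library than in every DMSO library, Nab2 is highest in DMSO hypoxia, and Atf3 is highest in MLN4924 hypoxia, at 12 to 14.56 FPKM.

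Among other dimer partners of AP-1, hypoxia in DMSO raised 4 of 10 tested genes and lowered 2 (6 and 2 without DMSO hypoxia replicate 1; median log2 fold change 0.004, against -0.08 over all tested genes). With MLN4924 4 rose and 0 fell in normoxia by limma (5 and 1 at an unadjusted p under 0.05; median 0.31), and 2 rose and 0 fell in hypoxia (4 and 0 unadjusted; median 0.17). The shares of all tested genes called in these 3 comparisons were 33.2%, 20.0% and 25.5%. The MLN4924 counts without DMSO hypoxia replicate 1 were 5 rising and 0 falling in normoxia, and 3 and 1 in hypoxia. Atf3, a stress-induced CREB family partner of JUN, measured 1.89, 2.44 and 2.71 FPKM in DMSO normoxia, 6.64, 6.84 and 5.76 FPKM in DMSO hypoxia, 5.75, 6.60 and 5.27 FPKM in MLN4924 normoxia, and 13.15, 12 and 14.56 FPKM in MLN4924 hypoxia. Each treatment alone raised it, hypoxia 2.22-fold (adjusted p = 6.51e-05) and MLN4924 2.06-fold (adjusted p = 2.16e-04), and both gave 4.27-fold (adjusted p = 8.27e-07). Ddit3, the stress factor CHOP, rose 3.36-fold with hypoxia in DMSO (adjusted p = 4.73e-06). Maf and Mafk, large and small MAF proteins, fell with it, by 0.87 and 0.36 on the log2 scale (log2 fold changes -0.87 and -0.36, adjusted p = 7.62e-05 and 0.00481).

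For the genes that act on JUN and FOS protein turnover, 0 of 15 tested rose and 4 fell with hypoxia in DMSO by limma (1 and 7 at an unadjusted p under 0.05; 0 and 6 without DMSO hypoxia replicate 1; median log2 fold change -0.27). With MLN4924 1 rose and 0 fell in normoxia (2 and 2 unadjusted, and 2 and 2 called without that library), and 2 rose and 3 fell in hypoxia. Called over all tested genes were 33.2%, 20.0% and 25.5%, in the same order. For MLN4924 in hypoxia 2 rose and 4 fell when DMSO hypoxia replicate 1 was left out. The ligase receptor Fbxw7 was at 2.37 ± 0.700 FPKM in DMSO normoxia, Det1 at 4.23 ± 0.687 and Cop1 at 27.1 ± 8.66, and none of the 3 was called in any of the 6 comparisons. Trib1, which encodes a pseudokinase that recruits COP1, measured 3.10, 3.44 and 3.46 FPKM in DMSO normoxia and 8.80, 8.19 and 7.44 FPKM in MLN4924 normoxia (log2 fold change 1.08 ± 0.12, adjusted p = 1.90e-04). In hypoxia it was 1.52, 1.75 and 1.28 FPKM with DMSO and 5.77, 4.15 and 5.43 FPKM with MLN4924, a rise of 1.28 ± 0.12 (adjusted p = 6.35e-05). Rbx1, the RING subunit shared by these ligases, fell with MLN4924 in hypoxia (-0.45 ± 0.12, adjusted p = 0.0216, and -0.27 without DMSO hypoxia replicate 1, adjusted p = 6.51e-04, highest over alternatives 0.127). Trib2, a second gene of the Trib1 family, rose with it by 0.38 ± 0.12 (adjusted p = 0.0375). The Rbx1 call ended without any MLN4924 hypoxia library, and the Trib2 call under 12 of 23 alternatives, including without any DMSO normoxia library.

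Of 20 other immediate early genes tested, 7 rose and 3 fell with hypoxia in DMSO (7 and 4 without DMSO hypoxia replicate 1; median log2 fold change -0.03), MLN4924 raised 7 and lowered 4 in normoxia (0.24), and 6 rose and 5 fell with MLN4924 in hypoxia (0.08). Of all tested genes 33.2%, 20.0% and 25.5% were called in these comparisons. The MLN4924 counts without DMSO hypoxia replicate 1 were 8 rising and 5 falling in normoxia, and 6 and 6 in hypoxia. Ier3, a stress-induced survival gene, rose 4.34-fold with hypoxia in DMSO (adjusted p = 1.52e-06). Ccn2, a matricellular protein gene, rose 7.92-fold with MLN4924 in hypoxia (adjusted p = 9.29e-09). The zinc finger genes Klf2 and Klf10 fell with MLN4924 in normoxia, Klf2 by 2.64 on the log2 scale and Klf10 by 1.03, from 14.8 ± 0.361 to 6.74 ± 0.131 FPKM (log2 fold changes -2.64 and -1.03, adjusted p = 1.25e-06 and 4.17e-04).

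Of 14 tested genes known as AP-1 targets, 5 rose and 4 fell with hypoxia in DMSO (5 and 7 without DMSO hypoxia replicate 1; median log2 fold change -0.17), MLN4924 raised 5 and lowered 2 in normoxia (0.26), and 9 rose and 2 fell with MLN4924 in hypoxia (0.54, against -0.01 over all tested genes; 9 and 1 without that library). The shares called over all tested genes, rising and falling, were those given for the repressors. Leaving out DMSO hypoxia replicate 1 gave 7 rising and 2 falling targets with MLN4924 in normoxia. Sprr1a, a cornified envelope gene, rose 4.0-fold with hypoxia in DMSO and fell with MLN4924 in hypoxia by 3.58 on the log2 scale (log2 fold change -3.58 ± 0.14, adjusted p = 1.51e-07). Its interaction was -1.64 ± 0.20 (adjusted p = 0.00396), of the same sign as that of Junb, and its group means were 47.4, 194, 11.7 and 15.3 FPKM in DMSO normoxia, DMSO hypoxia, MLN4924 normoxia and MLN4924 hypoxia. The proliferin gene Prl2c2 rose with MLN4924 in hypoxia by 4.41 ± 0.15 on the log2 scale (adjusted p = 3.30e-08), with the caution that its paralogs share reads. Ccl2, a chemokine, fell with hypoxia in DMSO by 2.35 (log2 fold change -2.35 ± 0.11, adjusted p = 1.89e-07).

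Of 12 tested EGR1 targets, 5 rose and 4 fell with hypoxia in DMSO (5 and 2 without DMSO hypoxia replicate 1; median 0.13), MLN4924 raised 4 and lowered 2 in normoxia (-0.01), and 5 rose and 4 fell with MLN4924 in hypoxia (0.33), where Egr1 was lowest. The shares over all tested genes were 33.2%, 20.0% and 25.5% called. Leaving out DMSO hypoxia replicate 1 gave 5 rising and 3 falling targets with MLN4924 in normoxia. Vegfa, the angiogenic growth factor that is also a hypoxia-inducible factor target, rose 3.72-fold with hypoxia in DMSO, where Egr1 fell (log2 fold change 1.90 ± 0.07, adjusted p = 7.24e-08). It fell with MLN4924 in hypoxia by 0.47 on the log2 scale (log2 fold change -0.47 ± 0.07, adjusted p = 0.00133). Thbs1, an inhibitor of angiogenesis, rose 3.42-fold with MLN4924 in hypoxia (adjusted p = 1.22e-06) and Ptges, which makes prostaglandin E2, fell by 0.81 (log2 fold change -0.81 ± 0.09, adjusted p = 2.09e-04). Ptpn1, a tyrosine phosphatase gene, fell with hypoxia in DMSO (-1.15 ± 0.33, adjusted p = 0.0227), and by 0.76 without DMSO hypoxia replicate 1 (log2 fold change -0.76, adjusted p = 0.0420, highest over alternatives 0.107), and the call ended without DMSO normoxia replicate 1 or 2.

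For the 3 members whose group means spanned at least 1 log2 unit, the genes with the most similar profile over the 12 libraries were found by the root mean square difference of centred log2(FPKM + 1) values. Closest to Egr1 were the linker histone gene H1f2 (0.14 log2 units), the tetraspanin gene Tspan4 (0.22) and Fam102a (0.25). H1f2 averaged 33.2, 17.8, 23.6 and 7.01 FPKM in DMSO normoxia, DMSO hypoxia, MLN4924 normoxia and MLN4924 hypoxia, the same order as Egr1. Closest to Junb were Borcs7 (0.11), the cytidine deaminase gene Cda (0.12) and Kctd2 (0.13), with Cda at 36.03, 66.8, 26.3 and 31.2 FPKM. Closest to Fosl1 were Gm45442 (0.14), the ephrin gene Efnb2 (0.17) and Agap2 (0.19), with Efnb2 at 12.3, 10.1, 22.7 and 12.9 FPKM. Gm45442 and Agap2 lay near or below 1 FPKM in most groups, where the added 1 FPKM shrinks differences. Gm45442 averaged 1.45 FPKM in MLN4924 normoxia and 0.17 to 0.41 in the other groups. It thus met the filter of 1 FPKM only through the group where Fosl1 is high, and its likeness to Fosl1 is in part set by that filter.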

How the data were processed

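Paired-end RNA sequencing gave 12 libraries, 3 in each of 4 groups taken from the sample titles. The deposited values are FPKM computed by the authors, rounded to 2 decimals, in 1 table of 24770 symbols. The submitters' processing notes name fastp, STAR, RSEM 1.3.3 and build mm39, with no role or order. The annotation, strandedness and filters are not given in the sources used here. FPKM hold no counts, so depth per library is unknown, and reads of overlapping or near-identical genes cannot be separated.

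The model was run in limma 3.58.1 (R 4.3.3) on log2(FPKM + 1) of every gene that reached 1 FPKM in 3 or more libraries. It had a mean for each of the 4 groups, a common spread with 8 residual degrees of freedom, and an intensity trend. Two-sided p-values were adjusted by Benjamini-Hochberg over 12311 tested genes per contrast, with 0.05 as threshold. Alternatives changed the added value, filter, scaling, samples fitted, weights, trend, replicate block and libraries. P-values measure the spread between these libraries, which may be technical.

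The members and gene lists were chosen with earlier results of these data known, so list counts are descriptions. All members were described. Per list, at most the 2 genes with the largest rise and the 2 with the largest fall among those called were named, beside Srf, Nab1, Nab2, Dusp1, Atf3, Fbxw7, Cop1 and Det1, which were named whatever their value, as were the 3 most similar genes per member. Transcript lengths came from GENCODE for the preceding build by symbol (97.5% of tested genes), and promoters from RefSeq GRCm38.p6. The fit was tested on simulated data.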

Additional observations from a re-analysis of the deposited data

Results flagged for a closer look

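The hypoxia effect differed between MLN4924 and DMSO, by the interaction term of the limma fit over 3 libraries per group, for 3 of the 7 tested members. The hypoxia effect with the inhibitor minus that without it was -0.71 log2 units for Junb (adjusted p = 0.00401), -0.76 for Egr1 (0.0252) and -0.47 for Jun (0.0151). For Junb a rise in DMSO was not seen with the inhibitor, for Jun the rise was smaller with the inhibitor, and for Egr1 the fall was larger with it. The Junb call held in all 22 alternatives, whereas the Egr1 call ended in 9 of them and the Jun call in 2.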

How the results depend on the processing

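Of the 27 member calls over 6 comparisons, 20 kept their direction and call under all 23 alternatives (22 for the interaction), 7 lost the call in at least 1, and 0 changed sign. Among all tested genes, fits of the compared groups alone called 2224 for hypoxia in DMSO (4093 with all groups), 1264 for MLN4924 in hypoxia (3137) and 4068 for MLN4924 in normoxia (2467). Array weights, which gave DMSO hypoxia replicate 1 a weight of 0.0736, called 4524 for MLN4924 in normoxia, 5339 for hypoxia in MLN4924 (3473) and 843 for the interaction (232), and 5 members for the interaction (3). Leaving out 1 library gave 1650 to 4212 genes for MLN4924 in normoxia, 2524 to 5231 for hypoxia in MLN4924 and 90 to 678 for the interaction, each highest without DMSO hypoxia replicate 1, and 3 to 5 members for hypoxia in MLN4924 (3 without any MLN4924 hypoxia library or MLN4924 normoxia replicate 1 or 2) and 1 to 5 for the interaction. The cause was not tested.

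Some values that had not passed the test changed sign. With array weights Fosl1 for hypoxia in DMSO became 0.041 and Fosl2 for MLN4924 in hypoxia became -0.090, and Fos in MLN4924 normoxia against DMSO hypoxia became 0.0067 when library totals were made equal. With 1 library left out these ranged from -0.22 to 0.020, from -0.090 to 0.10 and from -0.17 to 0.094, and Fosl1 for both treatments against neither from -0.053 to 0.17. For hypoxia in DMSO the log2 ratio of Junb to Jun ranged from -0.11 to 0.027 and that of Junb to Jund from -0.27 to 0.072.

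Replicate numbers gave no sign of pairing between libraries, though these values cannot exclude it. Deviations of same-numbered libraries correlated at -0.070 to 0.099 over 18 pairs, and 4 of 12 libraries correlated best with their own number. With replicate number as a block the interaction had 132 called genes, and Jun for MLN4924 in hypoxia and Fosl2 for hypoxia in MLN4924 had adjusted p of 0.0564 and 0.0741. The unknown depth limits statements on Fosb, Egr2 and Egr3.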
